A study of Mus musculus with 6 samples.

Results

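ATR and ATM are related kinases that sense damaged or unpaired DNA. Expression of the 2 kinase genes and of 7 genes whose products act with them was compared between testes of Dazap1 mutant and wild-type mice. The 9 genes are Atr, Atm, Topbp1, Brca1, Mdc1, Rnf8, Scml2, Chek1 and Chek2, and they were read by every probe set that the platform annotation assigns to exactly one of these symbols, 21 probe sets in all. They are 9 of the 18193 genes that the annotation names on the array. The mutant mice were homozygous for the Fn (floxed with Neo) allele of Dazap1, which makes an aberrant DAZAP1 protein with an insertion between its RNA recognition motifs. The wild-type mice (Wt) carry no such allele, and both genotypes share a mixed background of C57BL/6 and 129. RNA came from whole testes at postnatal day 21 (P21), with 3 samples of each genotype, each hybridized to its own one-colour Affymetrix array. Most Fn homozygotes die around birth, so the testes sampled are those of surviving, growth-retarded animals.

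In somatic cells ATR is recruited to single-stranded DNA and activated by TOPBP1, whereas ATM responds to double-strand breaks. Both phosphorylate the histone H2AX, and MDC1 binds that mark and spreads it. RNF8, a ubiquitin ligase, and BRCA1 act on the marked chromatin, and the effector kinases CHEK1 and CHEK2 halt the cell cycle. Male germ cells use the same proteins at meiotic breaks and on the unpaired X and Y chromosomes of pachytene spermatocytes, where ATR, TOPBP1, BRCA1 and MDC1 are needed for silencing of the sex chromosomes. SCML2, a germ line Polycomb protein, works with RNF8 on the sex chromosomes of meiotic and later cells.

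The values are MAS5 signals, a linear intensity for each probe set that the authors had scaled to one level per array. Trimmed means were 498.4 to 498.6 over the 6 arrays. Dazap1 itself had signals of 2538, 2735 and 2819.8 in Fn testes, against 4323, 4462 and 5046 in Wt testes, a log2 change of -0.77 ± 0.088 (SE, limma adjusted p = 6.7e-05). The sources used here do not say whether its probe set lies in the altered part of the gene. Of the marker genes tested, 6 of 7 for pachytene and diplotene spermatocytes and 6 of 6 for round spermatids were lower in Fn testes, while higher signals were found for 6 of 7 of Sertoli cells and 6 of 6 of peritubular and stromal cells. The summed signal of the pachytene and diplotene markers was 12350 to 18930 in Fn arrays and 55480 to 58730 in Wt arrays. That of the leptotene and zygotene markers, of which 2 of 7 rose and 1 fell, was 28270 to 30560 in Fn arrays and 28690 to 31980 in Wt arrays. Of that sum, Sycp3 alone gave 11881 to 12929 in Fn arrays and 11147 to 12050 in Wt arrays. Dmc1 and Prdm9 rose, with log2 changes of 1.01 and 1.11, and Spo11 fell, with -1.41. No marker lay under the filter level in every array. Of 7 round spermatid markers on the array 6 were tested, and of 6 elongating spermatid markers 4. The others had a geometric mean under that level. In RNA of whole testes, fewer cells of a type and less RNA per cell cannot be told apart. The paper describes the germ cells of both genotypes at P21 as mostly pachytene spermatocytes. Its authors were concerned that those of the growth-retarded Fn mice might be less advanced, and took adult Fn testes for their exon arrays. Such a difference in stage cannot be told apart here either.

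Of the 9 genes, each read by its brightest probe set, 6 rose and 2 fell in Fn testes, and Rnf8 did not pass the test. Scml2 and Chek2 had the largest rises, and Mdc1 and Atr were the 2 that fell. For Atr the direction depended on the probe set, since a dimmer one rose. A call is an adjusted p under 0.05 from limma, adjusted over the 27022 probe sets that reached a geometric mean of 48.0 in signal over the 6 arrays. Over all 13447 genes tested the same way, 44.9% rose and 24.7% fell, beside 66.7% and 22.2% of the members, shares that rest on 9 genes and were not tested against the background. Groups did not overlap in 8 of the 9 genes, 6 with all 3 Fn values above the Wt values and 2 with all below, where 48.9% and 26.6% of all genes had such separation. The median size of the change, whatever its direction, was 0.67 for the members and 0.66 for all genes on the log2 scale.

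The median log2 change of all genes was 0.32, so a gene at 0 on the deposited scale lies below the typical gene. Quantile normalization brought it to 0.25, and centring each array on its median to 0.17. Relative to 0.32, the brightest probe sets of Scml2, Chek2, Atm, Brca1 and Chek1 were higher, at 1.02, 0.75, 0.36, 0.35 and 0.22. Topbp1 was at -0.10, Rnf8 at -0.30, Atr at -0.90 and Mdc1 at -1.11. On the deposited scale, the 95% limma intervals of Atm (0.24 to 1.14), Chek1 (0.27 to 0.82) and Topbp1 (0.06 to 0.39) included 0.32. Those of Scml2, Chek2 and Brca1 lay above it, and those of Rnf8, Atr and Mdc1 below. Of all genes, 30.1% had a higher log2 change than Atm, 31% than Brca1 and 38.2% than Chek1.

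**Figure D1:**
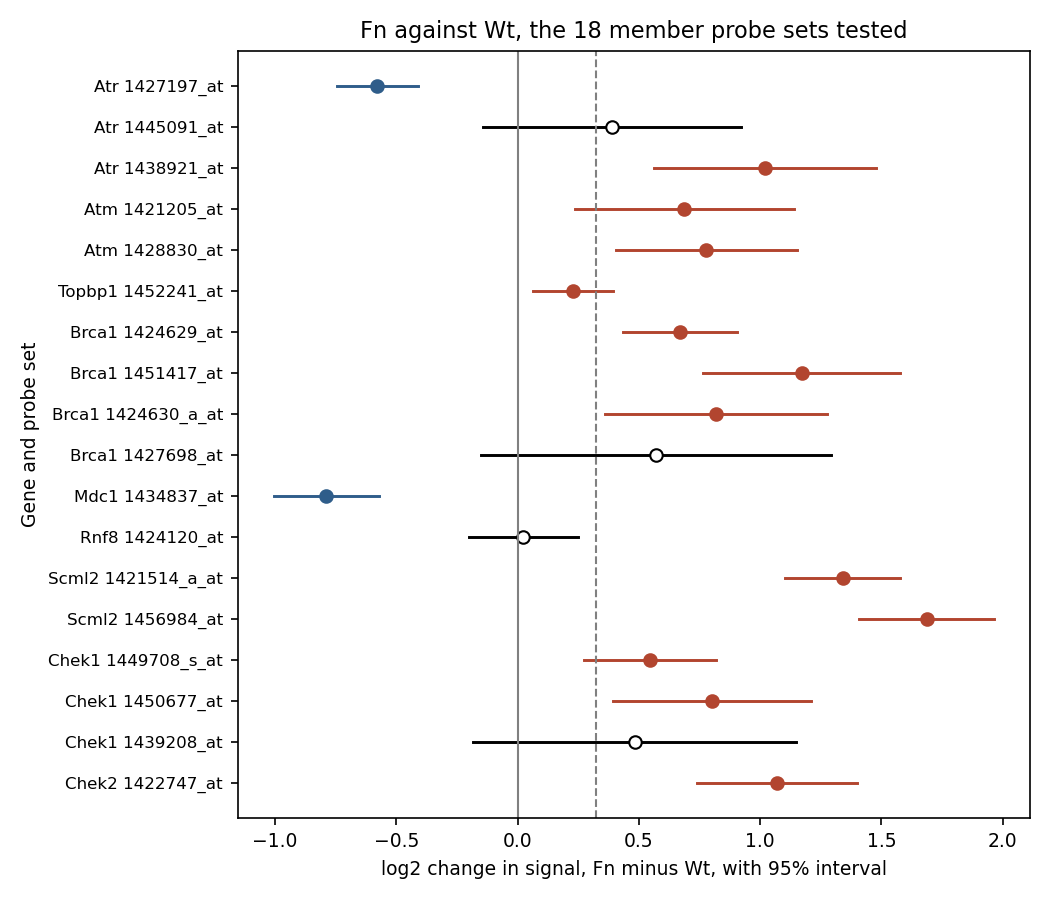
Log2 change (Fn minus Wt) of the 18 member probe sets tested, with 95% intervals from limma (3 arrays per genotype); rows run by gene and, within a gene, by brightness. Filled points have an adjusted p under 0.05, red for higher and blue for lower in Fn testes, and the others are open; a grey line marks 0 and a dashed one 0.32, the all-gene median. The brightest Atr probe set and Mdc1 are the 2 that fell, and the 2 probe sets of Scml2 lie farthest to the right.

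By single probe set, 18 of the 21 passed the filter, and of these 12 rose, 2 fell and 4 did not pass the test. Over all 27022 probe sets tested, 41.8% rose and 20.2% fell. The 3 probe sets under the filter, 1 of Topbp1 and 2 of Chek1, had signals between 1.5 and 49.9 in the 6 arrays, their groups overlapped, and they were not tested.

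**Figure D2:**
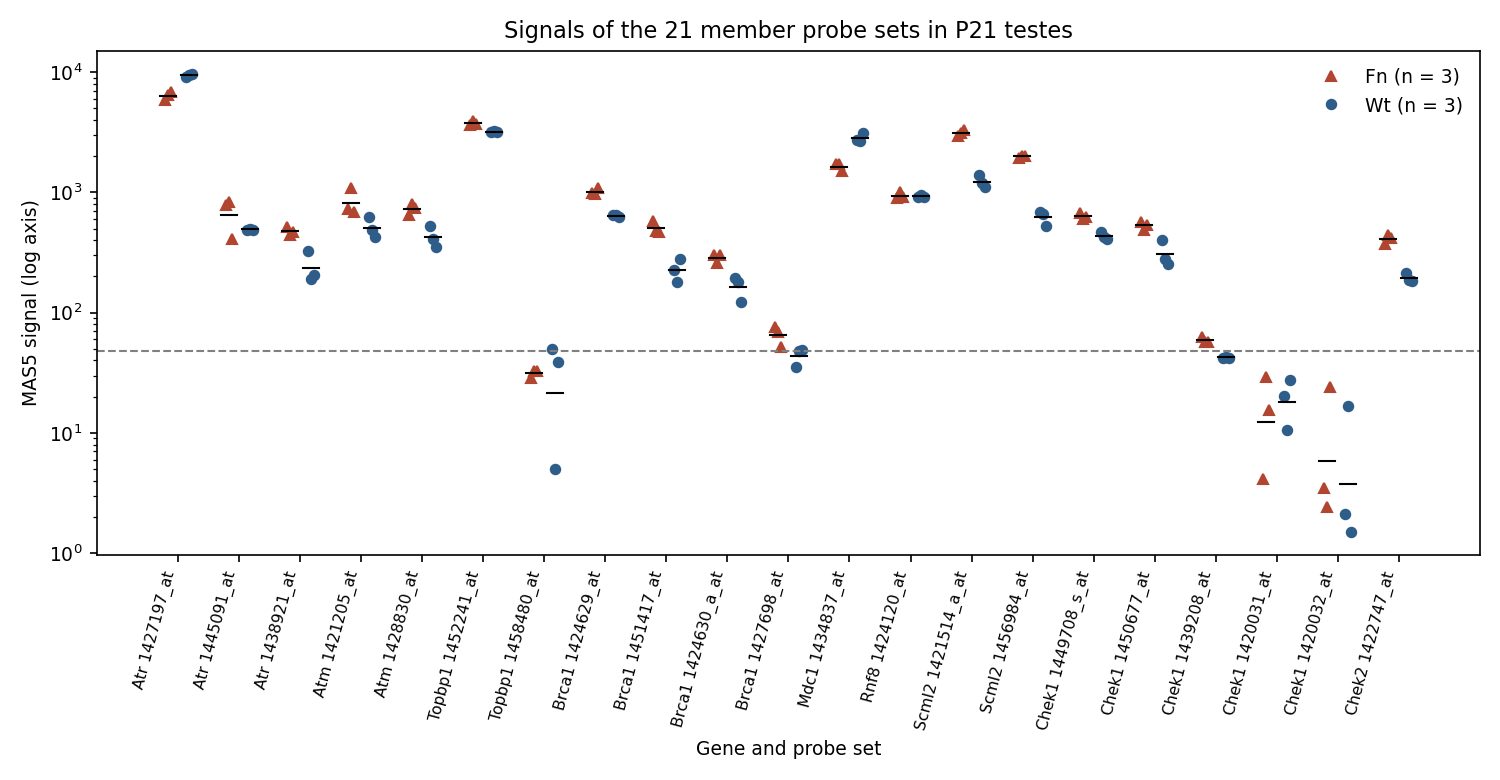
MAS5 signal on a log axis of all 21 member probe sets in 3 Fn arrays (red triangles) and 3 Wt arrays (blue circles) of P21 testes. Each short bar marks a geometric mean, and a dashed line the filter level of 48.0, which applies to the geometric mean over all 6 arrays. Scml2 and Chek2 show a clear gap between genotypes, and the 3 probe sets that were not tested lie at the bottom.

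Atr, the kinase that in spermatocytes coats the axes of the unpaired sex chromosomes, did not give one answer across its 3 probe sets. The brightest, 1427197_at, had signals of 5819.5, 6436 and 6806 in Fn testes, against 9187, 9495 and 9729 in Wt testes. Every Fn array lay below every Wt array, and the log2 change was -0.58 (standard error 0.074, adjusted p = 1.4e-04), a level 1.49-fold lower in Fn testes. The dimmest of the 3, 1438921_at, went the other way. It had signals of 512, 439.8 and 473 in Fn testes, against 325, 190.3 and 206 in Wt testes, again with no overlap, a log2 change of 1.02 ± 0.20 (SE, limma adjusted p = 0.0018). The third, 1445091_at, had 785, 830.0 and 411 in Fn testes, against 491, 500.5 and 485 in Wt testes. Fn replicate 3 lay below the Wt arrays and the other two Fn arrays above them, so the groups overlapped and the log2 change of 0.39 did not pass (adjusted p = 0.18). Without Fn replicate 3 it was 0.71 (adjusted p = 0.0013).

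**Figure D3:**
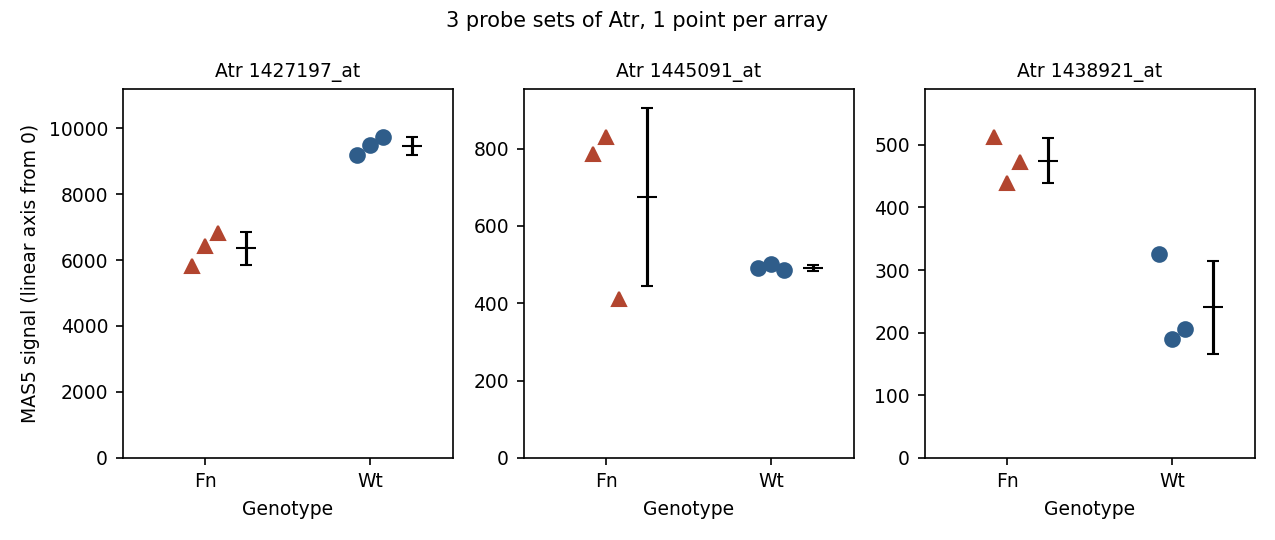
MAS5 signal of the 3 probe sets of Atr in each of 3 Fn arrays (triangles) and 3 Wt arrays (circles), on linear axes from 0 that differ between panels; bars are the mean and SD (n = 3). The brightest probe set is lower in all Fn arrays, the dimmest is higher in all Fn arrays, and 1445091_at is split within Fn.

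Whether probe sets of one gene moved by different amounts was tested in each array, on the log2 ratio of each dimmer probe set over the brightest one of its gene. Over all 10404 such pairs, 15.3% differed between genotypes at an adjusted p under 0.05 from limma, and of the 9 member pairs 1 did. For Atr, the ratio of 1438921_at over 1427197_at was 0.0880, 0.0683 and 0.0694 in Fn arrays and 0.0354, 0.02 and 0.0212 in Wt arrays. The 2 changes thus differed by 1.60 on the log2 scale (standard error 0.22, adjusted p = 0.0022). Those of 1445091_at and 1427197_at differed by 0.97, which narrowly missed the threshold (adjusted p = 0.0503) and passed with the replicate number as a block (adjusted p = 0.016) and without Fn replicate 3 (a difference of 1.34, adjusted p = 3.1e-04). With that block, 3 of the 9 member pairs passed. The annotation ties 1438921_at and 1445091_at to expressed sequence tags. The sources used here do not place the probe sets on Atr transcripts. Of the 6159 genes with more than 1 probe set tested, 261, or 4.24%, were lower by one and higher by another, and Atr was the 1 member among them. Averaged over its 3 probe sets on the log2 scale, Atr had a change of 0.28 (adjusted p = 0.054), so its direction as a gene depends on the probe set.

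Atm, the kinase of double-strand breaks, was higher in Fn testes by both of its probe sets. The brighter, 1421205_at, had signals of 727, 1081 and 686 in Fn testes, against 629.9, 483 and 423 in Wt testes, a log2 change of 0.69 ± 0.20 (SE, limma adjusted p = 0.014). Its highest Wt array came close to its lowest Fn array, and without Wt replicate 3 the adjusted p was 0.057. The other probe set, 1428830_at, had 645, 801 and 743 in Fn testes, against 529, 411 and 351 in Wt testes. Its log2 change was 0.78 (standard error 0.17, adjusted p = 0.0027), and the 2 changes of Atm differed by 0.09 (95% interval -0.30 to 0.48).

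Topbp1 encodes the activator of ATR. Its signals of 3667, 3913 and 3696 in Fn testes, against 3171, 3272 and 3183 in Wt testes, did not overlap. The rise was small, with a log2 change of 0.23 ± 0.073 (SE, limma adjusted p = 0.022), or 1.17-fold. It was smaller than the median change of all genes and was lost when each array was centred on its median (0.07, adjusted p = 0.58) or its 75th percentile (0.10, adjusted p = 0.28), and without Fn replicate 1 (adjusted p = 0.051), Fn replicate 2 (0.072) or Wt replicate 1 (0.061).

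The 3 mediators on marked chromatin each behaved differently. Mdc1, which binds phosphorylated H2AX, had signals of 1708, 1710.1 and 1513 in Fn testes, against 2735, 2686 and 3104 in Wt testes. All Fn arrays lay far below all Wt arrays, with a log2 change of -0.79 ± 0.097 (SE, limma adjusted p = 1.1e-04), or 1.73-fold lower. Rnf8, the ligase that MDC1 recruits, had 906, 1000.4 and 921 in Fn testes, against 911, 949 and 919 in Wt testes, and the groups overlapped throughout. Its log2 change was 0.02 with a 95% interval of -0.20 to 0.25 on the deposited scale (adjusted p = 0.85).

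Brca1, whose product brings ATR to unpaired axes, had the most probe sets that passed the filter. In the brightest, 1424629_at, the signals were 988, 975 and 1096 in Fn testes, against 654, 643 and 624 in Wt testes. Its Fn and Wt arrays formed 2 tight groups, and the log2 change was 0.67 (standard error 0.11, adjusted p = 4.6e-04). The probe set 1451417_at read a change of 1.17 (standard error 0.18, adjusted p = 4.0e-04), from 577, 482 and 468 in Fn testes against 228, 180.0 and 277 in Wt testes. The changes of these probe sets differed by 0.50 (95% interval 0.01 to 0.99), and this did not pass after adjustment (adjusted p = 0.17). A further probe set, 1424630_a_at, rose by 0.82 (adjusted p = 0.0062), and the dimmest, 1427698_at with 52.2 to 76.2 in Fn testes and 35.1 to 49.2 in Wt testes, had a log2 change of 0.57 (adjusted p = 0.15).

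Scml2 had the largest change of the 9 genes. Its brighter probe set, 1421514_a_at, had signals of 2947, 3111 and 3289 in Fn testes, against 1392, 1201 and 1112 in Wt testes, which is 2.53-fold higher (log2 change 1.34, standard error 0.11, adjusted p = 6.5e-06). The second, 1456984_at, had 1933, 2028 and 2025 in Fn testes, against 691, 661 and 522 in Wt testes, or 3.22-fold higher (log2 change 1.69, standard error 0.12, adjusted p = 4.0e-06). Both left a wide gap between genotypes. The 2 changes differed by 0.35 (95% interval 0.10 to 0.59, adjusted p = 0.066, or 0.044 with the replicate number as a block). Of all 13447 genes, 289, or 2.15%, had a higher log2 change than Scml2.

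Scml2 is X-linked, and X-linked genes as a group were higher in Fn testes. Of 461 X-linked genes tested, 398, or 86.3%, rose and 15 fell, with a median log2 change of 1.01, while of 12922 autosomal genes 43.5% rose, with a median of 0.29. Scml2 lay above the X-linked median, and 40 of the X-linked genes had a higher change than it did. The other 8 members are autosomal. The X chromosome is silenced from the pachytene stage on, and the pachytene and diplotene markers were lower in these Fn arrays. The part of that shift in the Scml2 result was not tested.

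**Figure D4:**
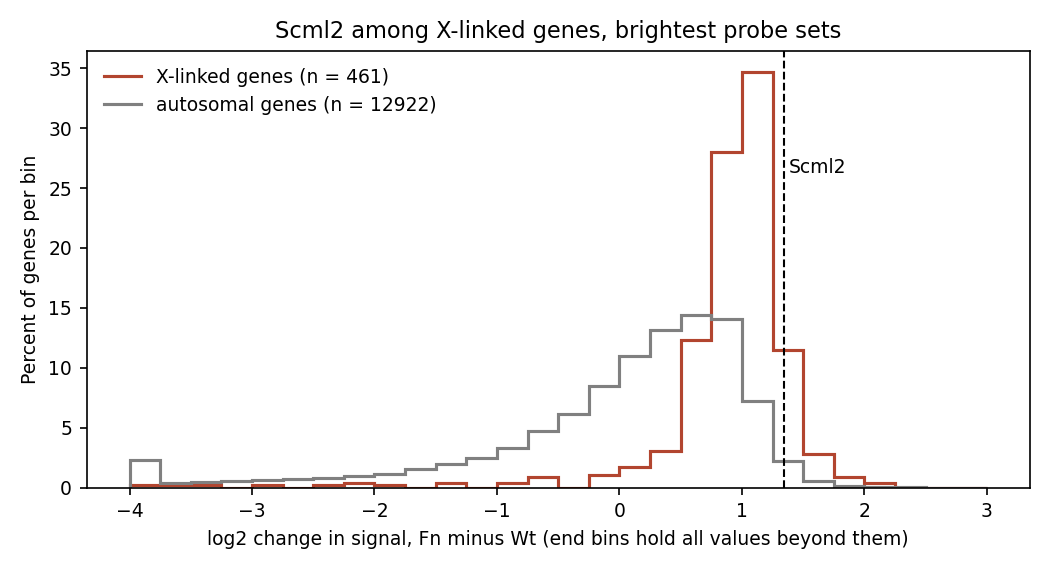
Distribution of the log2 change in signal, Fn minus Wt, over 461 X-linked genes (red) and 12922 autosomal genes (grey), each read by its brightest probe set, as percent of genes per bin of 0.25; the end bins hold all values beyond them. The dashed line is Scml2 at 1.34, to the right of the X-linked median of 1.01.

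Both effector kinases rose. Chek2, the main target of ATM, had signals of 369, 444 and 416 in Fn testes, against 214, 187 and 185 in Wt testes. Its Fn signals were all above its Wt signals, 2.10-fold higher (log2 change 1.07, standard error 0.15, adjusted p = 2.1e-04). Of all genes, 8.69% had a higher log2 change.

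Chek1, the main target of ATR, was read by 5 probe sets, of which 3 passed the filter. The brightest, 1449708_s_at, had 672, 603 and 624 in Fn testes, against 472, 425 and 407 in Wt testes, a log2 change of 0.54 ± 0.12 (SE, limma adjusted p = 0.0034). The suffix _s_at marks a probe set that can also match other transcripts. The probe set 1450677_at, without that suffix, had 572.5, 486 and 541 in Fn testes, against 402, 278 and 255 in Wt testes. It was higher in all Fn arrays too (log2 change 0.80, standard error 0.18, adjusted p = 0.0037), and the 2 changes differed by 0.26 (95% interval -0.15 to 0.66). The dim probe set 1439208_at, close to the filter level, had a log2 change of 0.48 (adjusted p = 0.18). Of the markers of proliferating cells, 4 of 6 rose (and none fell, also at an unadjusted p under 0.05). Their median log2 change was 0.35, close to the 0.32 of all genes, of which 44.9% rose. Their summed signal was 26680 to 28320 in Fn arrays and 22240 to 24670 in Wt arrays. Of 6 differentiating spermatogonial markers, 5 rose and Dmrtb1 fell. Their summed signal overlapped, at 9948 to 10950 in Fn arrays and 10240 to 11560 in Wt arrays. Dmrtb1 alone had 625.6 to 710.7 in Fn arrays and 4748 to 6591 in Wt arrays. The part of these cells in the members' changes was not tested.

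The windows around the start sites of the 9 genes, 250 bases before and 50 after, were taken from RefSeq (GRCm38.p6), and all 9 matched by symbol. The E2F factors drive genes of DNA replication and checkpoints, and their octamers (TTTGGCGC, TTTCCCGC, TTTGCCGC and TTTCGCGC, read on both strands) occurred in the windows of Mdc1, Topbp1 and Chek2. They were present in 2.26% of all 32851 such windows. These 3 windows, the only ones of the 9 with such an octamer, are shown. Their genes moved differently, Mdc1 being lower, Topbp1 little changed and Chek2 higher in Fn testes. Each is written 5′ to 3′ with the octamer in capitals, 16 bases before the start site in Mdc1, 129 in Topbp1 and 152 in Chek2.
Mdc1, chr17:35841248-35841547, plus strand: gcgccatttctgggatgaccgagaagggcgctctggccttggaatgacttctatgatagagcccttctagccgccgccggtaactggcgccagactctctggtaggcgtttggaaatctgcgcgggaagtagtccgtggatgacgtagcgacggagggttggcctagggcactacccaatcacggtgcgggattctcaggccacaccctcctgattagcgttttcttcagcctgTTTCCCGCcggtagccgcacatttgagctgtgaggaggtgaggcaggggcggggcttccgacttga
Topbp1, chr9:103305077-103305376, plus strand: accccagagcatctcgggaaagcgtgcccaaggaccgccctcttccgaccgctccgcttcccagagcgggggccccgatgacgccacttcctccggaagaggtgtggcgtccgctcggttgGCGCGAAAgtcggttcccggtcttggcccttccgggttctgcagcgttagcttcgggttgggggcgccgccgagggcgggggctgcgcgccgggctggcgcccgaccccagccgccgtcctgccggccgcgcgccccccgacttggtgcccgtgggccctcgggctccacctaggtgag
Chek2, chr5:110839733-110840032, plus strand: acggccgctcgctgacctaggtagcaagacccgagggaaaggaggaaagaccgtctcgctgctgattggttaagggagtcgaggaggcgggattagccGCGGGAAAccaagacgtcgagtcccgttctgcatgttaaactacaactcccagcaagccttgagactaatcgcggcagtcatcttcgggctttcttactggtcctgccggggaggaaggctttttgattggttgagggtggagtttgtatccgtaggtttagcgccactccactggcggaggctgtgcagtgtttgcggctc

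The octamer in Chek2, GCGGGAAA, is the reverse complement of the TTTCCCGC in Mdc1, while Topbp1 holds GCGCGAAA, that of TTTCGCGC. The cAMP response element that CREM and related factors bind, TGACGTCA, was in 0 of the 9 windows and in 1.79% of all windows. CCAAT, on either strand, was in 5 of the 9 (Atm, Brca1, Mdc1, Rnf8 and Chek2) and in 37.4% of all. No CCAAT match overlapped an E2F octamer in these windows. A match of letters shows neither that a factor binds there nor a cause, and a window without one says nothing of the factor.

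Other genes of the pathway were taken from 6 lists by role, with 76 genes, of which 72 were tested. Of these 24 rose, 14 fell and 34 did not pass the test, with a median log2 change of 0.09, against 0.32 for all genes, of which 44.9% rose and 24.7% fell. With the arrays centred on their 75th percentiles the lists had 18 rises and 22 falls, and with centring on medians 16 and 20. All genes then had 5065 rises and 3770 falls, and 4456 and 3686.

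Among genes that activate ATR or act with it at replication forks, 7 of 14 rose and 1 fell. Their median log2 change was 0.30, close to the 0.32 of all genes, of which 44.9% rose and 24.7% fell. Rpa1, the large subunit of the single-strand binding protein RPA that recruits ATR, had signals of 4637, 5039 and 4106 in Fn testes, against 9327, 10204 and 9748 in Wt testes, a log2 change of -1.09 (adjusted p = 6.3e-06). The smaller RPA subunits moved the other way, Rpa2 with a rise of 0.62 (adjusted p = 2.6e-04) and Rpa3 with 0.82 (adjusted p = 6.0e-04). Tipin, of the fork protection complex, rose by 0.67 (adjusted p = 8.3e-05), the ATR activator Etaa1 by 0.82 and the CHEK1 adaptor Clspn by 0.83. Rad17, Rad9a and Atrip, the partner subunit of ATR, did not pass, with log2 changes of 0.07, 0.08 and 0.01.

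Of 9 genes around ATM activation and the MRN complex, which senses double-strand breaks, 3 rose and 4 fell, with a median of -0.23. Kat5, the acetyltransferase that activates ATM, had 1337, 1426 and 1328 in Fn testes, against 3186, 3120.0 and 3796 in Wt testes, a log2 change of -1.30 (adjusted p = 5.6e-06). Ppm1d, a phosphatase that reverses ATM signalling, fell by as much, with a log2 change of -1.30 (adjusted p = 4.8e-05), and -0.39 when its probe sets were averaged. Within the MRN complex Nbn fell by 0.65 (adjusted p = 0.0018) and Mre11a by 0.34 (adjusted p = 0.027), whereas Rad50 rose by 0.41 (adjusted p = 0.013). The list had 1 rise with either centring of the arrays or without Fn replicate 1.

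Most genes of the H2AX ubiquitin branch and of the BRCA1 complexes were not called. Of 16 tested, 3 rose, 0 fell and 13 did not pass limma's test, with a median of 0.07. At an unadjusted p under 0.05, 5 were higher and 0 lower. By adjusted p, 4 fell with either centring of the arrays, 2 with array weights and 1 without Wt replicate 2. The rises were 4 with the replicate number as a block and 6 when probe sets were averaged. The 3 that rose were Brip1, the helicase partner of BRCA1, with a rise of 1.14 (adjusted p = 4.2e-04), and 2 genes of the BRCA1-A complex, Brcc3 with 0.98 (adjusted p = 4.8e-04) and Uimc1 with 0.55 (adjusted p = 8.1e-04). H2ax had signals of 3672, 3742 and 3707 in Fn testes, against 4534, 3922 and 3998 in Wt testes, a log2 change of -0.16 (adjusted p = 0.11).

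Among 10 checkpoint effectors tested, 4 rose and 3 fell (median -0.05). Plk1, the mitotic kinase that ends the checkpoint, had a log2 change of -1.37 (adjusted p = 3.5e-05), and Pkmyt1, an inhibitor of CDK1, had -1.35 (adjusted p = 4.9e-05), or -0.85 when its probe sets were averaged. Cdc25b, a phosphatase that activates CDK1, rose by 1.30 (adjusted p = 3.5e-04), and the CDK inhibitor gene Cdkn1a, a p53 target, by 1.02 (adjusted p = 8.3e-04).

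Of 11 partners of ATR on unsynapsed axes and sex chromosomes, 2 rose, 2 fell and 7 did not pass the test, with a median of 0.10. Trip13, the ATPase that removes HORMAD proteins from synapsed axes, rose by 0.60 (adjusted p = 0.0012), and Cbx1, a heterochromatin protein, by 0.42 (adjusted p = 0.0023), or by 0.20 when its probe sets were averaged (adjusted p = 0.18). Fancd2, of the Fanconi anaemia pathway, fell by 0.45 (adjusted p = 0.0044), or by 0.27 when its probe sets were averaged. Without Fn replicate 1, Fn replicate 2 or Wt replicate 3 the list had 1 fall. Hormad1 and Hormad2, which recruit ATR to unsynapsed axes, had log2 changes of -0.11 and 0.10 and did not pass.

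Among 12 related kinases and end joining genes, 5 rose and 4 fell (median -0.12). Xrcc4, a partner of DNA ligase IV, had the largest change of all the lists, with signals of 533.5, 588 and 411 in Fn testes, against 1693, 1959 and 1862 in Wt testes, a log2 change of -1.86 (adjusted p = 5.6e-06). Its probe set also carries the suffix _s_at. Lig4, the ligase itself, fell by 0.75 (adjusted p = 4.1e-04), while Xrcc6, the KU70 subunit that binds broken ends, rose by 0.76 (adjusted p = 2.8e-04). The rises of the list were 2 with centring on medians and 3 without any one array other than Wt replicate 3, and the falls were 2 without Fn replicate 2.

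**Figure D5:**
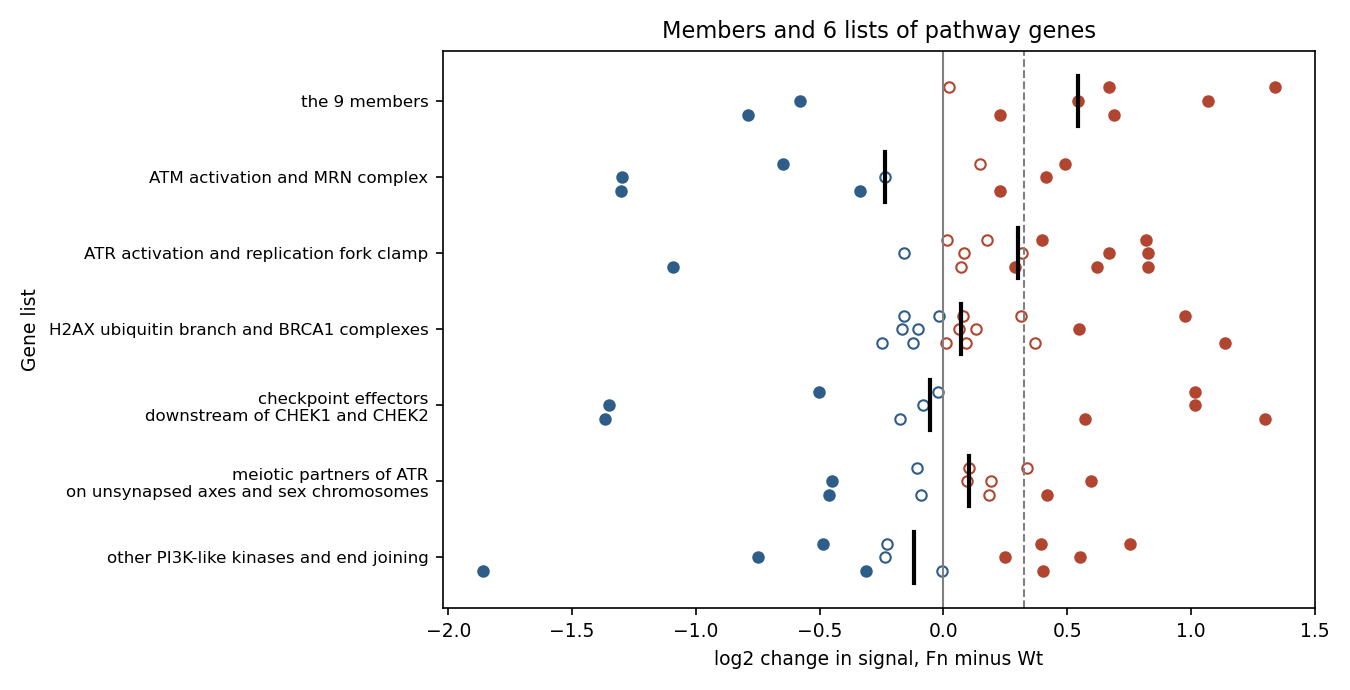
Log2 change (Fn minus Wt) of the 9 members and of each gene tested in 6 lists of pathway genes, each gene read by its brightest probe set (3 arrays per genotype). Points are filled where the adjusted p was under 0.05 and open elsewhere, red above 0 and blue below, with black bars at list medians, a grey line at 0 and a dashed one at 0.32, the all-gene median. List medians run from -0.23 for ATM activation to 0.30 for ATR activation.

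The genes whose signals ran most closely with the 2 kinases over the 6 arrays were found by Pearson correlation of log2 signals among the other 13446 genes. For the brightest probe set of Atr they were Gpr62 (r = 0.999), Krba1 (r = 0.998) and Dmac2 (r = 0.998), with log2 changes of -6.13, -1.48 and -0.56. For Atm they were Gpr183 (r = 0.991), Trmt61a (r = 0.991) and Doc2a (r = 0.988), with log2 changes of 0.94, 0.32 and 0.61. The 6 arrays share 2 genotypes, so these correlations include the difference between genotypes and are given as a description.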

How the data were processed

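RNA of 6 P21 testis samples (3 Fn, 3 Wt) was measured on Affymetrix Mouse Genome arrays, and the authors deposited a linear MAS5 intensity per probe set, per the labels. The methods name GeneSpring and no test. Gene names came from the platform annotation: 34945 of 45037 probe sets named 1 gene, 932 several and 9160 none, and probe sets with 1 gene were kept. The RefSeq table, which gave chromosomes, held 34741 of them. The single value of 0 was set to 0.1.

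Log2 intensities were fitted in R 4.3.3 with limma 3.58.1 (lmFit, eBayes with an intensity trend), Fn minus Wt, for 27022 probe sets, those that reached the 40th percentile of mean log2 signal (48.0 as a signal), with Benjamini-Hochberg adjustment over all of them. A gene was read by its brightest probe set. Ratios of probe sets of 1 gene were fitted alike over 10404 pairs. The fits of probe sets and of ratios were tested on simulated data. A simulated log2 change of 1 was called in 54% of probe sets and -1 in 48%, and either in 36% of pairs. Changes of 2 and -2 were called in 82% and 72% of probe sets and in 86% and 88% of pairs. Each change was put into 50 probe sets or pairs, far fewer than were called in these data. The adjustment is stricter where fewer are changed, so these shares do not tell how many changes were missed here. The arrays hold no depth, and their number limits the precision. The labels call the samples biological replicates and the methods name different RNA preparations, without naming the animals, so each p-value reflects only how these samples vary, which may be technical.

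The labels number samples 1 to 3 in each genotype. Deviations from group means of same-numbered Fn and Wt arrays correlated at 0.131, 0.123 and 0.159 and those of other pairs at -0.15 to 0.0351, so on this check of the values alone the numbers may pair the samples. The fits reported are without that block, and a fit with the replicate number as a block is an alternative. Between arrays of one genotype Spearman's rho was 0.974 to 0.984, and across the 2 genotypes 0.836 to 0.886.

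The members and lists were chosen with earlier results of these data known. Named genes are the members, Dazap1, the 3 genes of each list with the smallest p and the 3 most like Atr and Atm. Etaa1, Clspn, Rpa3, Rad17, Rad9a, Atrip, Mre11a, Rad50, H2ax, Cdkn1a, Hormad1, Hormad2 and Dmrtb1 were named after their values were seen. So were the markers Sycp3, Dmc1, Prdm9 and Spo11. Of 76 list genes, 4 were not analysed here. Marker genes were written down in 12 lists, of which the other cell types gave these counts: undifferentiated spermatogonia 4 of 5 rose and 1 fell, Leydig cells 2 of 4 rose, macrophages 2 of 5 rose and 1 fell, endothelial cells 0 of 4 were called by limma (1 at an unadjusted p under 0.05) and elongating spermatids 3 of 4 fell.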

Additional observations from a re-analysis of the deposited data

How the results depend on the processing

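Scml2, Chek2, Mdc1, Brca1 and Chek1, by their brightest probe sets, kept their direction and their adjusted p under 0.05 from limma in all 17 alternatives, with log2 changes of 1.18 to 1.51, 0.91 to 1.14, -0.95 to -0.72, 0.51 to 0.81 and 0.39 to 0.61. Rnf8 passed in none of 17 (adjusted p = 0.39 to 0.99). Chek2, Mdc1, Rnf8 and Topbp1 had only 1 probe set tested each, so averaging probe sets could not alter their log2 changes. Atr reversed with the mean of its probe sets, at 0.277, and the members that fell were then 1. The brightest Atr probe set otherwise kept its call, and the difference from 1438921_at passed in all 13 alternatives (1.45 to 1.86). Atm ranged from 0.48 to 0.85 and lost its call without Wt replicate 3, and Topbp1 lost its own with both centrings, with 3 single arrays left out and with no intensity trend (adjusted p = 0.077). Both also missed an adjusted p under 0.01.

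The count of member pairs that differed was 2 with a pseudocount of 16, 3 with array weights, 3 with the replicate block and 1 to 2 with each array left out. The block changed no other call of a member and added 1 rise to the pathway lists, which then had 25. With the arrays centred on the 75th percentile, 22 genes of the pathway lists fell. In that setting and with centring on medians, 45.0% and 44.4% of the list genes called were rises, against 63.2% on the deposited scale. The share fell over all genes too, where 57.3% and 54.7% of calls were rises, against 64.5% on the deposited scale. Leaving out each array gave 5 to 6 members that rose and 2 that fell. At an adjusted p under 0.01, 4 members rose and 2 fell. Array signals near 48.0 limit the dim probe sets of Brca1 and Chek1, which passed in 2 and 1 of the alternatives.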
